A study of Homo sapiens with 6 samples.

Results

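The gene group described here comprises 9 genes of the NRF2 antioxidant response and of NADPH supply: NFE2L2, KEAP1, BACH1, MAFG, SQSTM1, NQO1, PGD, TKT and TALDO1. They were chosen by symbol in the deposited expression matrix, and all 9 were found among its 63241 genes and lay within the 12999 genes tested. Every library was made from MDA-MB-231 cells, an established human breast cancer line without hormone receptors. There were 6 libraries: the ArA group (3) was exposed to ArA at 40 µM for 24 h, and the control group (3) was left untreated. The study's title gives arachidonic acid, a polyunsaturated fatty acid, as the lipid under study. The labels name no vehicle for the controls and do not say whether replicates were separate cultures, so the p-values reflect spread that may be technical. Levels are in TPM, which gives a gene's reads per transcript length as a share of the whole library. Depth is unknown, and since TPM sees only shares of RNA, fewer cells with a transcript and less of it per cell cannot be told apart.

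NRF2, the transcription factor encoded by NFE2L2, is held at a low level in unstressed cells by KEAP1, an adaptor of a CUL3 ubiquitin ligase that marks it for degradation. Reactive lipids and other electrophiles modify cysteines of KEAP1, after which NRF2 accumulates, pairs with small MAF proteins such as MAFG and binds antioxidant response elements (ARE), sites that BACH1 otherwise occupies as a repressor. Because this switch acts on the NRF2 protein, transcript levels describe the parts of the pathway and its targets, not NRF2 activity itself. NQO1, a quinone reductase that uses NADPH or NADH, is its best-known target, and enzymes of the pentose phosphate pathway, which supply NADPH, are targets in several cancer lines. The mesenchymal markers fixed for the line were present, with VIM at 1434 to 1515 TPM in ArA libraries and 1335 to 1441 TPM in control libraries. Of the defining luminal markers, PGR was listed at 0 in every library and ESR1 did not exceed 0.03 TPM, while GATA3 had 3.07 to 4.36 TPM in ArA libraries and 3.33 to 3.43 TPM in control libraries, and FOXA1 had 2.88 to 3.45 TPM in ArA libraries and 3.19 to 3.71 TPM in control libraries. The 4 luminal markers summed to 5.95 to 7.63 TPM in ArA libraries and 6.53 to 7.14 TPM in control libraries, and the 3 blood markers to 0.08 to 0.15 TPM in ArA libraries and 0.07 to 0.15 TPM in control libraries. The 5 fibroblast or muscle markers summed to 5.25 to 9.52 TPM in ArA libraries and 4.93 to 6.17 TPM in control libraries, with PDGFRB alone at a mean of at least 1 TPM; their part in the results was not tested.

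Promoter sequence is shown for the 4 genes with an upstream window that held a motif searched, and, as a stretch without a match, for SQSTM1, the most abundant of the 9. RefSeq windows on GRCh38.p14 matched all 9 genes, with 15 start sites between them, and the 250 bases upstream of each start were searched on both strands for the ARE core TGACNNNGC, the AP-1 motif TGANTCA and the E-box CACGTG. An ARE core can hold an AP-1-like sequence, and the motifs may overlap. The ARE core was found in 2 of the 15 windows, in PGD and KEAP1, against 10.91% of 35116 windows of all genes. The AP-1 motif stood in 1 BACH1 window (6.57% of all windows) and the E-box in the MAFG window (6.34%). Capitals below mark the match, each stretch reads along the strand of its gene, and the lines for KEAP1 and BACH1 give their matches with flanking bases. Of the 3 SQSTM1 windows, the line gives 104 of the 250 bases before a start inside the gene, the part that no annotated UTR covers.
PGD, forward strand, chr1:10398814-10399063: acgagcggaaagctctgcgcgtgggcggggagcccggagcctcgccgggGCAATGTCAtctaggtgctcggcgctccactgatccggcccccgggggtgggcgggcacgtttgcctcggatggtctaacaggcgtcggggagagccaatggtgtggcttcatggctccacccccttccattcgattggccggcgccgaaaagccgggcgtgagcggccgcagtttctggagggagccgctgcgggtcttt
MAFG, reverse strand, chr17:81927736-81927985: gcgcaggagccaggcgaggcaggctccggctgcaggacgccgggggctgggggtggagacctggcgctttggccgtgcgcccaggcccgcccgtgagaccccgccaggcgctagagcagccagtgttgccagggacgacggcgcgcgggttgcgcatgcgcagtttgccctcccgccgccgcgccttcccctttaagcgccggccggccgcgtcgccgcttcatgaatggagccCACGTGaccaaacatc
KEAP1, reverse strand, chr19:10502809-10502833: ttttattgTGACACGGCgggcgccc
KEAP1, reverse strand, chr19:10502786-10502810: ccggctctGCTTAGTCAtggtgacc
BACH1, forward strand, chr21:29298866-29298888: ggaaggagTGAGTCAcctgaccg
SQSTM1, forward strand, no match, chr5:179820655-179820758: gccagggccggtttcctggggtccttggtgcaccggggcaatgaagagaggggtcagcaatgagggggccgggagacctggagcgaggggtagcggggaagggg
The PGD match lies 193 to 201 bases before the start, and the KEAP1 matches 46 to 54 and 23 to 31 bases before 1 of its starts, and the BACH1 match 42 to 48 bases before 1 of its starts. The KEAP1 and BACH1 matches lie within the annotated UTR of a transcript of the same gene (GENCODE v29), so these windows are not wholly outside transcribed sequence. The NQO1 window held none of the 3 motifs, and the ARE known from studies of NQO1 lies farther upstream than the stretch searched. A match describes letters only and does not show a bound site. A window without a match, as for SQSTM1, says nothing of sequence beyond the stretch searched.

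The levels spanned a wide range, with SQSTM1, NQO1 and the 3 enzymes above the 4 regulators of the NRF2 switch. SQSTM1, which codes for an autophagy receptor that can bind KEAP1, was the highest at a mean of 610.1 TPM over the 6 libraries, above 98.5% of tested genes. NQO1 followed at 420 TPM, then the pentose phosphate enzymes TKT, TALDO1 and PGD at 353, 257 and 144 TPM. KEAP1 had 37.6 TPM, NFE2L2 17.3 TPM, MAFG 16.9 TPM and BACH1 3.81 TPM. Between neighbours in this order the ranges over the 6 libraries overlapped for NQO1 and TKT and for NFE2L2 and MAFG, and for no other pair. NQO1 was nonetheless above TKT within each of the 6 libraries, whereas NFE2L2 was above MAFG in 4 of 6.

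**Figure D1:**
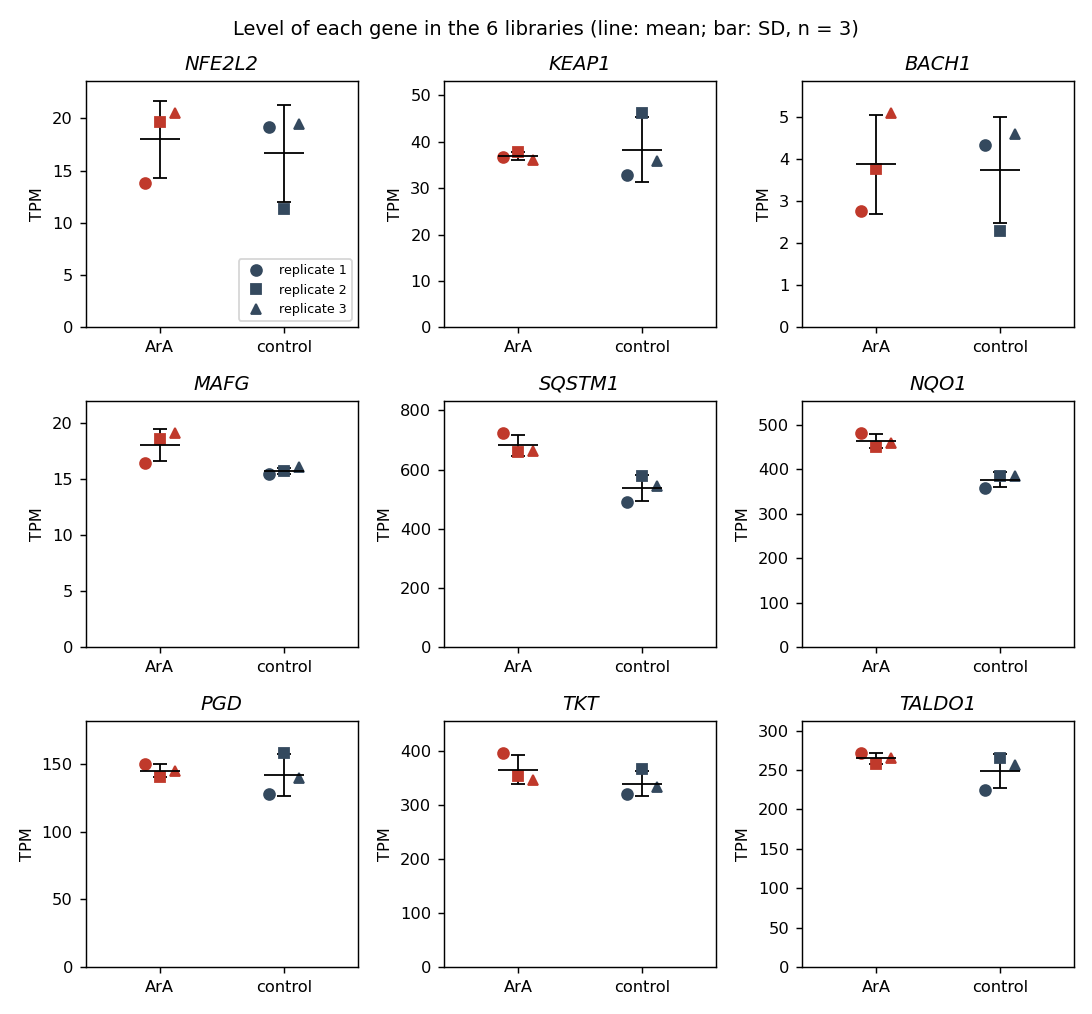
TPM of each of the 9 genes (y axis, starting at 0) in ArA libraries (left, red) and control libraries (right, dark), with marker shapes for replicates 1 to 3, the mean as a line and the SD as a bar (n = 3). NQO1, SQSTM1 and MAFG show every ArA library above every control library, while NFE2L2 and BACH1 have a low value in ArA replicate 1 and in control replicate 2.

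Exposure to the lipid was compared with no treatment, gene by gene. None of the 9 genes passed an adjusted p of 0.05 in limma over all 12999 tested genes (0 of 9, adjusted p = 0.999 for each), a threshold that 3 genes, or 0.0231% of those tested, passed. At an unadjusted p under 0.05, limma counted 2 of the 9, NQO1 and SQSTM1, beside 362 genes, or 2.78%, of all tested. With median-of-ratios scaling neither did (unadjusted p = 0.0756 for NQO1 and 0.0741 for SQSTM1, limma), and after GC correction SQSTM1 alone did. NQO1, SQSTM1 and MAFG had every ArA library above every control library, 3 of 9 genes, where 6.84% of tested genes were separated in that direction. The 3 became 2 with median-of-ratios scaling (2.93% of all genes) or quantile normalization (3.01%), and 1, SQSTM1, after GC correction (4.9%). They became 7 without control replicate 2 and 8 without both control replicate 2 and ArA replicate 1, where 16.8% and 32.6% of all genes were separated in that direction. No member was lower in all 3 ArA libraries, which held for 1.21% of tested genes. The median log2 fold change was 0.10 over the 9 genes and 0.06 over all tested genes, of which 68.9% were positive. Under the 3 other scalings the median of the 9 was 0.03 to 0.05, after GC correction 0.04, and with 1 library left out 0.09 to 0.22, the highest without ArA replicate 1. Mitochondrially encoded transcripts took 26.9 to 32.1% of TPM in ArA libraries and 31.6 to 32.9% in control libraries, with ArA replicates 2 and 3 below every control library. With TPM rescaled without them 49.3% of all genes were positive, and with median-of-ratios scaling 51.0%. Without control replicate 2 and ArA replicate 1, both described below, 0 of 9 genes passed as well.

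NQO1 (ENSG00000181019, chromosome 16, 69706996 to 69726951, reverse strand, coordinates here and below from GENCODE v29 on hg38) catalyses the reduction of quinones to hydroquinones without a reactive semiquinone. It had 481, 449.8 and 459 TPM in ArA replicates 1, 2 and 3, against 357, 386 and 385 TPM in control replicates 1, 2 and 3. The groups did not overlap, and the lowest ArA value exceeded the highest control value. The means were 464 ± 16.1 TPM in ArA libraries and 376 ± 16.7 TPM in control libraries (SD, n = 3 each), a ratio of 1.23. On log2(TPM + 1) the fold change was 0.30 with an SE of 0.07 and a 95% interval of 0.13 to 0.47 (adjusted p = 0.999 in limma), the rank by p being 37 among all tested genes. An exact 2-sided permutation test of the 6 values gave p = 0.1, the smallest that 3 against 3 libraries allow. After the libraries' trend with GC content had been removed, the log2 fold change was 0.26 with an interval of -0.01 to 0.52, and the groups overlapped: ArA replicate 3 had 8.73 and control replicate 2 had 8.75 on the corrected log2 scale.

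SQSTM1 (ENSG00000161011, chromosome 5, 179806398 to 179838078, forward strand) codes for the receptor that carries ubiquitinated cargo to autophagosomes and can bind KEAP1, and its own promoter is a known NRF2 target. It had 724, 661 and 662 TPM in ArA replicates 1, 2 and 3, against 490.2, 578 and 545 TPM in control replicates 1, 2 and 3. Every ArA library lay above every control library, with ArA replicate 1 the highest and control replicate 1 the lowest. SQSTM1 averaged 682 ± 35.9 TPM in ArA libraries and 538 ± 44.5 TPM in control libraries (SD, n = 3 each), a ratio of 1.27. The log2 fold change of SQSTM1 was 0.34 with an SE of 0.09 and a 95% interval of 0.14 to 0.55 (adjusted p = 0.999 in limma), rank 50 by p among tested genes. It was 0.28 after GC correction, where the groups stayed apart (interval 0.11 to 0.45), but with median-of-ratios scaling the groups overlapped. SQSTM1 shares 105 exon bases with MGAT4B and 1582 with MRNIP, both on the opposite strand, 1.4% and 20.7% of its exon bases. Whether counting used strand is not given in the sources used here, so reads of these stretches may not be told apart; MGAT4B had 180.2 to 192 TPM in ArA libraries and 149 to 171 TPM in control libraries, and MRNIP 7.63 to 12.5 TPM in ArA libraries and 6.89 to 14.2 TPM in control libraries.

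MAFG (ENSG00000197063, chromosome 17, 81918270 to 81927714, reverse strand), the small MAF partner of both NRF2 and BACH1, had 16.4, 18.6 and 19.1 TPM in ArA replicates 1, 2 and 3, against 15.5, 15.7 and 16.1 TPM in control replicates 1, 2 and 3. The groups did not overlap, although ArA replicate 1 stood close to control replicate 3. Its means were 18.1 ± 1.43 TPM in ArA libraries and 15.8 ± 0.278 TPM in control libraries (SD, n = 3 each), and the log2 fold change was 0.18 with an interval that includes 0 (-0.06 to 0.43, limma adjusted p = 0.999). The separation was lost under quantile normalization and after GC correction, where the log2 fold change was 0.12. MAFG shares 105 exon bases with SIRT7 on the same strand, 2.0% of its exon bases.

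NFE2L2, KEAP1 and BACH1, the factor and its inhibitors, had overlapping groups and wide intervals. NFE2L2 (ENSG00000116044, chromosome 2, 177227595 to 177392697, reverse strand) had 13.8, 19.7 and 20.5 TPM in ArA replicates 1, 2 and 3, against 19.2, 11.3 and 19.5 TPM in control replicates 1, 2 and 3. ArA replicate 1 and control replicate 2 were low and the other 4 libraries lay within a narrow band. Its log2 fold change was 0.12 with an SE of 0.24 and a 95% interval of -0.44 to 0.69 (adjusted p = 0.999 in limma), so a fold anywhere from 0.737 to 1.61 was compatible with the spread. Its sign depended on these libraries, being -0.12 when control replicate 2 was left out, 0.29 when ArA replicate 1 was, and 0.05 when both were.

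KEAP1 (ENSG00000079999, chromosome 19, 10486120 to 10503741, reverse strand) had 36.8, 37.9 and 36.1 TPM in ArA replicates 1, 2 and 3, against 32.8, 46.2 and 35.9 TPM in control replicates 1, 2 and 3. The ArA libraries were nearly equal, and control replicate 2 was the highest of all 6. For KEAP1 the log2 fold change was -0.04 with an SE of 0.13 and a 95% interval of -0.35 to 0.28 (adjusted p = 0.999 in limma), a fold between 0.782 and 1.22. Without control replicate 2 it was 0.10. BACH1 (ENSG00000156273, chromosome 21, 29194071 to 29630751, forward strand), a heme-regulated repressor of the same sites, had 2.76, 3.76 and 5.09 TPM in ArA replicates 1, 2 and 3, against 4.33, 2.30 and 4.60 TPM in control replicates 1, 2 and 3. As for NFE2L2, the low libraries were ArA replicate 1 and control replicate 2. That of BACH1 was 0.05 with an SE of 0.27 and a 95% interval of -0.58 to 0.68 (adjusted p = 0.999 in limma), and its sign turned under TPM rescaled without mitochondrially encoded genes (-0.0027), without control replicate 2 (-0.19), without ArA replicate 3 (-0.13) and without both control replicate 2 and ArA replicate 1 (-0.021).

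The 3 pentose phosphate enzymes had overlapping groups and fold changes near that of the median gene. PGD (ENSG00000142657, chromosome 1, 10398592 to 10420144, forward strand), the phosphogluconate dehydrogenase, which yields NADPH in the oxidative branch, had 150.3, 140.4 and 145 TPM in ArA replicates 1, 2 and 3, against 128, 159 and 140.0 TPM in control replicates 1, 2 and 3. All 3 ArA values lay within the control range. The means were 145 ± 4.94 TPM in ArA libraries and 142 ± 15.3 TPM in control libraries (SD, n = 3 each), and the 95% interval of the log2 fold change, -0.19 to 0.26, bounds the fold between 0.875 and 1.20. Its small log2 fold change of 0.04 turned to between -0.03 and -0.02 under each of the 3 other scalings.

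TKT (ENSG00000163931, chromosome 3, 53224707 to 53256052, reverse strand), the transketolase of the non-oxidative branch, had 397, 354 and 346 TPM in ArA replicates 1, 2 and 3, against 320.3, 366 and 333 TPM in control replicates 1, 2 and 3. Control replicate 2 lay above ArA replicates 2 and 3. TALDO1 (ENSG00000177156, chromosome 11, 747329 to 765024, forward strand), the transaldolase of that branch, had 272, 258 and 265 TPM in ArA replicates 1, 2 and 3, against 224, 265 and 256 TPM in control replicates 1, 2 and 3, with control replicate 1 the low library. The log2 fold changes were 0.10 for TKT (95% interval -0.11 to 0.32) and 0.09 for TALDO1 (95% interval -0.11 to 0.30), each with a limma adjusted p of 0.999. Under the 3 other scalings both lay between 0.02 and 0.05. Without control replicate 2, TKT, TALDO1, PGD and KEAP1 were higher in every ArA library than in both remaining control libraries, a setting in which 16.8% of all genes were, with limma adjusted p values of 0.781 for TKT and TALDO1, 0.782 for PGD and 0.80 for KEAP1.

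**Figure D2:**
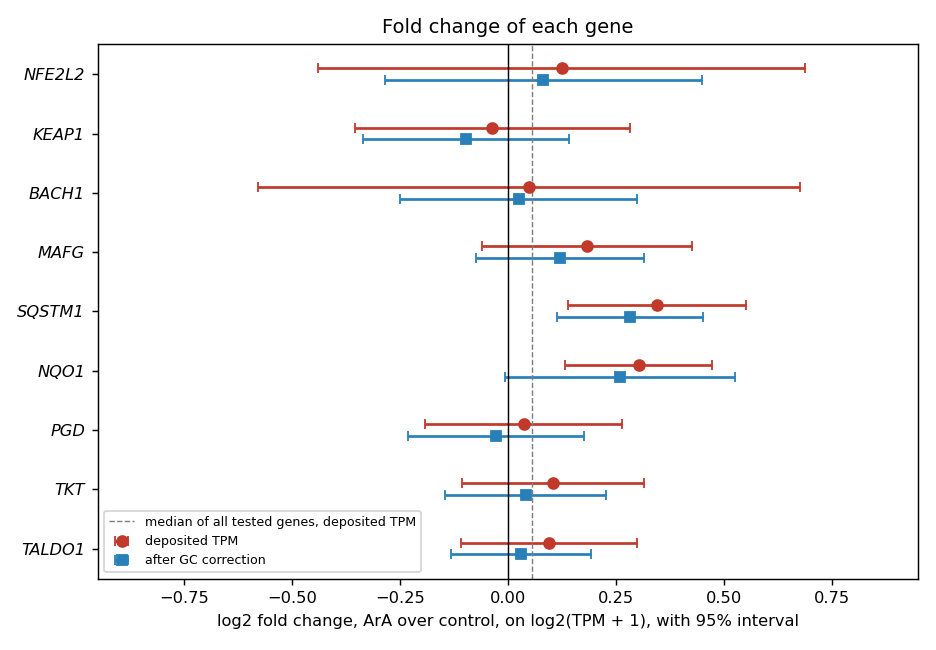
Log2 fold change of each gene, ArA over control (x axis, log2(TPM + 1) scale), with its 95% interval, from the deposited TPM (red circles) and after GC correction (blue squares). The intervals of NQO1 (0.13 to 0.47) and SQSTM1 (0.14 to 0.55) lie above 0 on the deposited TPM, and after GC correction that of NQO1 reaches 0 while that of BACH1 narrows.

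Ratios between members within a library do not move with the scaling of that library. The ratio of PGD to TALDO1 transcripts was 0.553, 0.545 and 0.549 in ArA replicates 1, 2 and 3, and 0.571, 0.598 and 0.547 in control replicates 1, 2 and 3. TKT to TALDO1 was 1.46, 1.37 and 1.31 in the ArA libraries, and 1.43, 1.38 and 1.30 in the control libraries. Both ratios overlapped between groups, and PGD to TALDO1 was nearly constant over the ArA libraries. BACH1 to NFE2L2, the repressor relative to the activator, averaged 0.213 ± 0.0307 in ArA libraries and 0.222 ± 0.0169 in control libraries (SD, n = 3 each), also with overlap. NFE2L2 to KEAP1 was 0.375, 0.519 and 0.569 in ArA replicates 1, 2 and 3, and 0.585, 0.245 and 0.543 in control replicates 1, 2 and 3, with control replicate 2 below all other libraries. NQO1 to KEAP1 was 13.1, 11.9 and 12.7 in ArA replicates 1, 2 and 3, and 10.9, 8.36 and 10.7 in control replicates 1, 2 and 3, which did not overlap. NQO1 by itself was separated too, so this ratio is not a result apart from it. The share of other gene pairs with separated ratios was not computed.

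Control replicate 2 and ArA replicate 1 stood apart from the other libraries by GC content. The median deviation of genes in the top tercile of GC content less that in the bottom tercile was 0.29, -0.06 and -0.18 on the log2 scale in ArA replicates 1, 2 and 3, and -0.30, 0.42 and -0.17 in control replicates 1, 2 and 3. The 9 genes run in GC content of their longest transcript from 38.6% for BACH1, 45.6% for NFE2L2 and 46.0% for NQO1 to 58.0% for SQSTM1 and 60.3% for KEAP1. In control replicate 2, BACH1 and NFE2L2 lay 0.51 and 0.54 below their means on the log2(TPM + 1) scale and KEAP1 0.30 above. In that library NQO1, SQSTM1 and MAFG lay 0.113, 0.065 and 0.095 below theirs, and PGD, TKT and TALDO1 0.143, 0.057 and 0.049 above. After GC correction the SD of BACH1 on that scale was 0.14 in ArA libraries and 0.10 in control libraries, against 0.35 in ArA libraries and 0.42 in control libraries before it. The SD of NFE2L2 was 0.17 in ArA libraries and 0.29 in control libraries, against 0.30 in ArA libraries and 0.42 in control libraries before it. For NQO1 the SD was larger after correction, at 0.17 in ArA libraries and 0.16 in control libraries, against 0.05 in ArA libraries and 0.07 in control libraries before it. The NQO1 to KEAP1 ratio was lowest in control replicate 2, and the part of the libraries' GC trend in it was not tested.

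**Figure D3:**
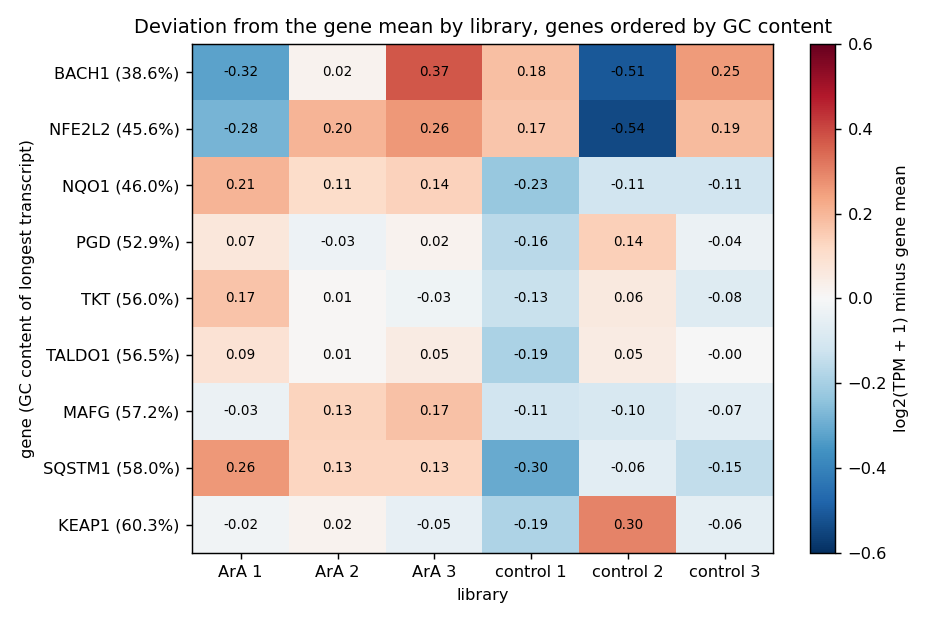
Deviation of each gene from its own mean over the 6 libraries (colour and printed value, log2(TPM + 1)), with ArA libraries left of control libraries and genes ordered from low (top) to high GC content of the longest transcript. Control replicate 2 is lowest for NFE2L2 and BACH1 and highest for KEAP1, while NQO1 and SQSTM1 are above their means in all 3 ArA libraries and below them in all 3 control libraries.

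The wider set of NRF2 targets was described beside NQO1, in a list chosen with earlier results of these data known. Of 25 listed targets beyond NQO1, 22 were tested, 0 passed in either direction in limma over all genes and 8 had an unadjusted p under 0.05. That count was 5, 5 and 6 under the other scalings, 5 with the replicate block and 3 without ArA replicate 2. After GC correction it was 10. All tested genes with such a p numbered 362, and 267, 289 and 276 under the other scalings. They numbered 232 with the block, 220 without ArA replicate 2 and 515 after GC correction. All 22 log2 fold changes were positive, where 68.9% of all tested genes were, with a median of 0.25 against 0.06 over all tested genes. All 22 were also positive under each of the 3 other scalings. Of all genes 51.0% were positive with median-of-ratios scaling, 51.8% with quantile normalization and 49.3% without mitochondrially encoded genes. Without control replicate 2, 21 of 22 were positive, beside 51.7% of all genes. In 11 of 22, every ArA library lay above every control library, against 6.84% of all genes. This held for 5 with median-of-ratios scaling (2.93% of all genes), 7 with quantile normalization (3.01%) and 9 without mitochondrially encoded genes (3.36%). After GC correction it held for 13 (4.9%), with a median of 0.22. It held for 20 of 22 without ArA replicate 1 (median 0.34), where it also held for 2781 of all 13078 genes tested, and for 21 without control replicate 2 and ArA replicate 1, where it held for 4284 of 13156. FTL, the ferritin light chain, averaged 2860 ± 40.5 TPM in ArA libraries and 2208 ± 391 TPM in control libraries (SD, n = 3 each). FTH1, the heavy chain that oxidises iron for storage, had 1569, 1703 and 1754 TPM in ArA replicates 1, 2 and 3, against 1184, 1375 and 1356 TPM in control replicates 1, 2 and 3. Both genes have many processed copies in the genome, so their levels are uncertain. ABCC3, an exporter of organic anions and conjugates, had 16.6, 16.1 and 15.3 TPM in ArA replicates 1, 2 and 3, and 12.4, 12.3 and 11.4 TPM in control replicates 1, 2 and 3. AKR1C1, an aldo-keto reductase whose close paralogs can share its reads, had 7.05, 9.24 and 8.26 TPM in ArA libraries and 6.09, 4.35 and 5.63 TPM in control libraries, with separated groups. The peroxiredoxin PRDX1 averaged 724 ± 121 TPM in ArA libraries and 628 ± 33.3 TPM in control libraries (SD, n = 3 each), with overlap.

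Among 10 further regulators, 9 were tested, 0 passed in limma and 0 had an unadjusted p under 0.05, beside 2.78% of all genes. Their median log2 fold change was 0.08, with 7 positive, where 68.9% of all genes were positive. Of the 9, 1 gene, MAFK, was separated, where 6.84% of all genes were separated upward. With 1 library left out the median ran from 0.02 to 0.13, and 5 were positive without ArA replicate 3 (55.6% of all genes). Without control replicate 2, 4 were separated upward (16.8% of all genes) and 1 downward (1341 of 13083 genes). MAFK overlapped with median-of-ratios scaling, quantile normalization or GC correction, which left 0 separated upward, beside 2.93%, 3.01% and 4.9% of all genes. After GC correction 1 regulator was separated downward, beside 507 of 12637 genes. There 1 had an unadjusted p under 0.05 in that direction, beside 226 of all genes. With the replicate block added 0 did, beside 195 of all genes. MAFK, another small MAF, had 17.5, 18.6 and 19.2 TPM in ArA replicates 1, 2 and 3, against 16.7, 16.7 and 17.3 TPM in control replicates 1, 2 and 3. NFE2L1, a relative of NFE2L2 that controls proteasome genes, averaged 203 ± 12.4 TPM in ArA libraries and 177 ± 18.0 TPM in control libraries; its lowest library, at 160.4 TPM, lay far above the highest of NFE2L2, at 20.5 TPM. NFE2L3, a further relative, had 57.6 ± 3.64 TPM in ArA libraries and 52.1 ± 14.3 TPM in control libraries, and the ligase subunit RBX1 had 77.4 ± 11.2 TPM in ArA libraries and 73.6 ± 7.13 TPM in control libraries (SD, n = 3 each).

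Of 18 other genes of NADPH supply, 15 were tested and 0 passed in limma. At an unadjusted p under 0.05 there was 1, H6PD, beside 2.78% of all genes. H6PD had an unadjusted p of 0.118, 0.144 and 0.0654 under the 3 other scalings (limma). There 0 of 15 were under 0.05, as with the replicate block. Of all tested genes 267, 289 and 276 were under these scalings, and 232 with the block. Positive values numbered 8 of 15, where 68.9% of all genes were positive. The median over the 15 was 0.04, which was below that of all genes. It turned to between -0.025 and -0.017 under the 3 other scalings. H6PD, which supplies NADPH inside the endoplasmic reticulum, had 13.0, 12.1 and 11.5 TPM in ArA replicates 1, 2 and 3, against 8.91, 10.7 and 9.08 TPM in control replicates 1, 2 and 3. It was the single gene of the 15 with separated groups, where 6.84% of all genes were separated in that direction. With median-of-ratios scaling (2.93% of all genes) or quantile normalization (3.01%) 0 of 15 were. After GC correction 2 were, beside 4.9%, and without ArA replicate 1 there were 3, beside 21.3% of all genes. IDH1, the cytosolic isocitrate dehydrogenase, had 118 ± 11.8 TPM in ArA libraries and 113 ± 16.9 TPM in control libraries, and the folate enzyme MTHFD1 had 82.9 ± 4.51 TPM in ArA libraries and 84.7 ± 4.86 TPM in control libraries (SD, n = 3 each). The malic enzyme ME1, counted both here and among the NRF2 targets, had 11.3 ± 1.76 TPM in ArA libraries and 9.75 ± 1.85 TPM in control libraries, and the mitochondrial transhydrogenase NNT had 19.5 ± 0.663 TPM in ArA libraries and 21.5 ± 4.08 TPM in control libraries. All 15 log2 fold changes lay between -0.21 and 0.33.

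Beside SQSTM1, 7 autophagy receptor and ATG8 genes were tested, and 0 passed in limma. At an unadjusted p under 0.05 there was 1, GABARAPL1, beside 2.78% of all tested genes. All 7 log2 fold changes were positive, with a median of 0.13, where 68.9% of all genes were positive. Of the 7, 0 were separated, beside 6.84% of all genes separated upward. Without ArA replicate 3 or control replicate 2, 5 of 7 were positive, beside 55.6% and 51.7% of all genes. The median of the 7 was 0.07 under the other scalings and 0.06 to 0.22 with 1 library left out. Without ArA replicate 1, 5 of 7 were separated, beside 21.3% of all genes. GABARAPL1 did not have an unadjusted p under 0.05 with quantile normalization, without mitochondrially encoded genes or with the replicate block. Nor did it with eBayes without trend, or without ArA replicate 2, ArA replicate 3, control replicate 2 or control replicate 3. GABARAPL1, an ATG8 protein of autophagosome membranes, averaged 28.8 ± 2.42 TPM in ArA libraries and 23.1 ± 3.38 TPM in control libraries. MAP1LC3B, the best-known ATG8 protein, averaged 85.2 ± 7.54 TPM in ArA libraries and 78.0 ± 4.74 TPM in control libraries. The receptor NBR1 averaged 45.1 ± 4.27 TPM in ArA libraries and 41.0 ± 4.02 TPM in control libraries, and the receptor CALCOCO2 44.7 ± 5.33 TPM in ArA libraries and 38.7 ± 7.21 TPM in control libraries (SD, n = 3 each). Under median-of-ratios scaling 2 of 7 were separated, beside 2.93% of all genes, and after GC correction 3 were, beside 4.9%.

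**Figure D4:**
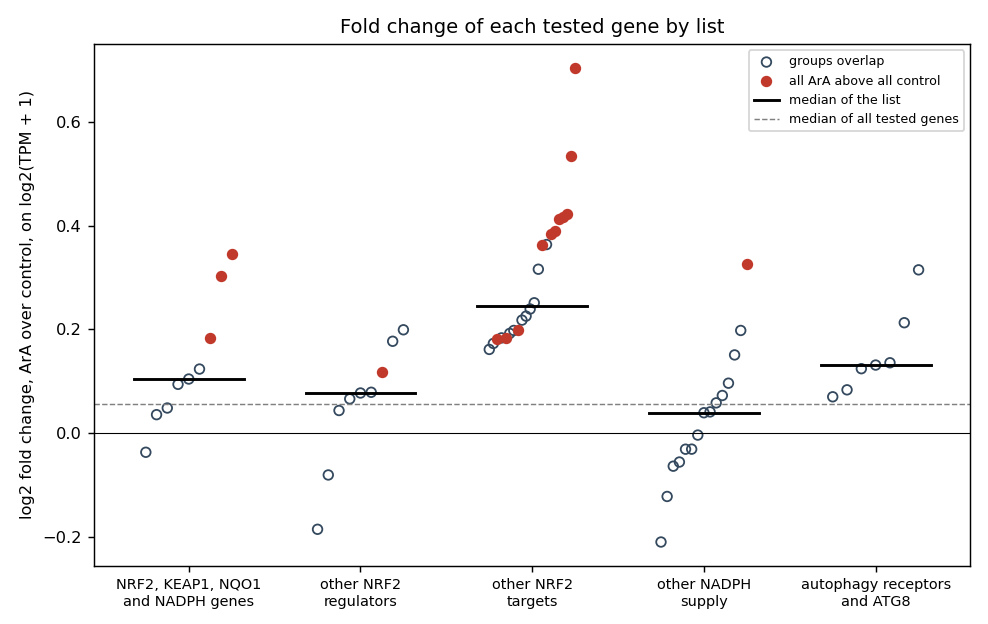
Log2 fold change, ArA over control, of every tested gene in 5 lists (y axis, log2(TPM + 1) scale), with filled red points where all ArA libraries exceed all control libraries, open points where the groups overlap, a black line for the list's median and a dashed line for the median of all tested genes. The NRF2 targets lie wholly above 0 with a median of 0.25, and the NADPH list straddles 0 with a median of 0.04.

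By the root mean square difference between centred log2(TPM + 1) profiles over the 6 libraries, genes among the 3 most like NQO1 were MAP3K14 at 0.0396 and RAB11B at 0.0438, where NQO1's own deviations had a root mean square of 0.158. SQSTM1 ranked 5th by this measure, at 0.0460. RAB11B had 65.9, 65.6 and 67.5 TPM in ArA replicates 1, 2 and 3, and 52.5, 57.4 and 57.8 TPM in control replicates 1, 2 and 3.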

How the data were processed

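RNA-seq libraries of 6 MDA-MB-231 samples, 3 ArA and 3 control, were described by 1 deposited table. The authors deposited TPM per gene, and the submitters' processing notes list HISAT2, StringTie, RSEM and hg38 with no version or role. The annotation and strand setting used are not given in the sources. All columns had equal totals, of which mitochondrially encoded transcripts took 26.9 to 32.1% in ArA libraries and 31.6 to 32.9% in control libraries. TPM are shares, so a fall in abundant transcripts raises the others. They hold no read counts, so depth is unknown and no counting interval can be given.

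Lines that name no gene (50) were left out. Genes averaging 1 TPM or more were transformed to log2(TPM + 1), which understates fold changes of low genes. The model was fitted by limma 3.58.1 under R 4.3.3 with group as its single term and a trended eBayes. All tests were 2-sided, with Benjamini-Hochberg adjustment over all 12999 genes. The fit was tested only on simulated data with independent noise for each gene. These had no GC trend between libraries, and their changes were larger than those of the 9 genes. NQO1 also had an exact permutation test (scipy 1.17.1). GC content came from the longest GENCODE v29 transcript, with a value for 97.2% of tested genes. GC correction subtracted a natural spline of 5 degrees of freedom from each library's deviations. The 9 genes, the lists, the GC correction and the pair of libraries left out together were chosen with earlier results of these data known. Named genes were the 9, per list the 3 with the highest mean TPM and the 3 with the smallest p, and the 3 most like NQO1; some genes that the rule names are not reported here. Alternatives were 3 other scalings, pseudocounts of 0.1 and 5, no filter or a mean of at least 5 TPM, a replicate block, eBayes without trend, robust eBayes, GC correction and libraries left out.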

Additional observations from a re-analysis of the deposited data

How the results depend on the processing

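None of the 9 genes passed under any of the alternatives run (BACH1 was not tested at a mean of at least 5 TPM), and NQO1, SQSTM1, MAFG, TKT and TALDO1 kept a positive log2 fold change in all of them. Over these alternatives NQO1 ranged from 0.22 to 0.32 (limma adjusted p = 0.441 to 1.00) and SQSTM1 from 0.26 to 0.40 (adjusted p = 0.399 to 1.00). Genes past the threshold among all tested were 3, but 0 with the replicate block, 5 after GC correction, 16 without control replicate 2 and ArA replicate 1 together, and 0 to 8 with 1 library left out; the cause was not tested. Same-numbered libraries did not deviate together (correlations of -0.16, -0.28 and 0.11 for numbers 1, 2 and 3). These deviations were not GC-corrected, and ArA replicate 1 correlated at 0.29 with control replicate 2. Whether the numbers pair the samples therefore cannot be decided from them. With 1 library left out, log2 fold changes ran from -0.12 to 0.29 for NFE2L2, -0.14 to 0.10 for KEAP1, -0.19 to 0.22 for BACH1 and -0.036 to 0.12 for PGD. Without control replicate 2 and ArA replicate 1 together, KEAP1 had 0.11 and BACH1 -0.021. BACH1 had -0.0027 with TPM rescaled without mitochondrially encoded genes. PGD turned to -0.023 with median-of-ratios scaling, -0.033 with quantile normalization, -0.029 without mitochondrially encoded genes, and -0.029 after GC correction with or without the replicate block. The median of the other NADPH genes turned to -0.017, -0.025 and -0.023 under these 3 scalings in the same order and -0.013 after GC correction with or without the replicate block, and ran from -0.034 to 0.082 with 1 library left out. Unknown depth limits what can be said of genes at low TPM such as BACH1.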
